A study of Mus musculus with 18 samples.

Results

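The cytosolic ribosomal protein genes were compared between WT ES cells kept with LIF and 743 ES cells expressing STAT3-MER kept with OHT. Members were all probe sets whose chip annotation gives a single gene symbol that starts with Rpl or Rps followed by a digit, together with Rplp0, Rplp1, Rplp2 and Rpsa, while ribosomal S6 kinases and pseudogenes were left out. The rule used no measured value. It found 71 of 36701 probe sets, which stand for 45 of 15964 genes, 23 of the large subunit with 33 probe sets and 22 of the small subunit with 38 probe sets. The small subunit counts here and below include Rps19bp1, which meets the rule by its symbol and is no ribosomal protein. No probe set of Rplp1 met the rule. A further 52 probe sets pair a ribosomal protein gene with other genes and are described only as a group.

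Both groups were embryonic stem cells of the inbred mouse strain FVB/N, established on growth-arrested embryonic fibroblasts of CD-1-M-TKneo mice. The WT group was 1 line with no transgene, grown with leukaemia inhibitory factor (LIF) and without OHT. The 743 group was 1 line from hemizygous transgenic mice in which a chicken β-actin promoter drives STAT3 fused to a modified ligand-binding domain of the mouse estrogen receptor, grown with 4-hydroxytamoxifen (OHT), which activates the fusion protein, and without LIF. Genotype, line, LIF and OHT therefore differed together and cannot be told apart. RNA of 3 independently cultivated dishes per group was amplified and hybridized to 3 chips, U74Av2, U74Bv2 and U74Cv2, as 18 arrays, so that p-values measure the spread between dishes of a line.

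Each eukaryotic ribosome holds a small subunit, which reads the messenger RNA, and a large subunit, which joins the amino acids. Their proteins are made in nearly equal numbers from unlinked genes, and most of their messages start with a run of pyrimidines (a terminal oligopyrimidine, or TOP, start) through which translation follows growth signals. In ES cells, as in other dividing cells, these messages belong to the most abundant of the transcriptome.

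The values are signal intensities on a linear scale, and no detection call goes with them. The trimmed means of the 18 arrays lay between 500.13 and 500.34, so a signal is a share of its array and not an amount of RNA per cell. In these bulk samples, fewer cells of a type and less RNA per cell cannot be told apart. The transgene was seen through Esr1 (93945_at), whose signal was at most 40.3 in the WT dishes and at least 25568 in the STAT3-MER dishes. No other Esr1 probe set and no Stat3 probe set had an unadjusted limma p under 0.05. The log2 fold changes (STAT3-MER over WT) of the Stat3 probe sets lay between -0.24 and 0.51. All 12 ES cell markers had a mean signal of at least 834.8. Of 20 markers of feeder fibroblasts 17 were on U74Av2, with signals down to 7.3 (Fap in STAT3-MER 1). Without detection calls it is not known which of them were present. Their summed signal was 20274 to 49565 in the WT dishes and 12157 to 54823 in the STAT3-MER dishes.

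No ribosomal protein probe set passed the limma threshold of an adjusted p of 0.05 (0 of 71, lowest adjusted p = 1.0). Over all probe sets 0.00272% passed, which is the Esr1 probe set 93945_at alone. At an unadjusted limma p under 0.05, 2 members were lower in STAT3-MER cells, on a background of 1.57%, and 0 were higher, on a background of 1.88%. These 2 were Rplp0 on 1 of its 3 probe sets and Rpl19 on its dim probe set. The study's criteria (a ratio of means over 1.5, a difference over 100 and a t-test p under 0.1) were applied to the deposited signals. The study itself used values from the dCHIP software, which are not the values used here. By these criteria 0 of 71 were lower and 0 were higher, where 0.872% and 1.10% of all probe sets met them. The groups did not overlap for 5 members that were lower in all STAT3-MER dishes (background 3.63%) and for 2 that were higher (background 4.50%). With 3 dishes against 3 an exact permutation test cannot give a p below 0.10, which is what such a gap gives.

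The members fell into a bright and a dim set with a gap between them. Of the 71 probe sets, 30 had a mean signal over the 6 arrays of at least 3359.3 and 41 had one of at most 1216. All 30 bright members were in the top 10% of the signals of their chip. They stand for 27 genes, while 18 genes were read only by dim probe sets and 9 by both kinds. Levels of different probe sets were not compared, since probes bind with different strength. Bright members were measured more closely, with a median coefficient of variation between dishes of 15.3%, against 43.7% for dim members and 19.9% for all 2554 probe sets with a mean signal of at least 2000. On U74Av2, at a mean signal of at least 5000, it was 15.7% for ribosomal protein probe sets and 16.6% for all probe sets.

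**Figure D1:**
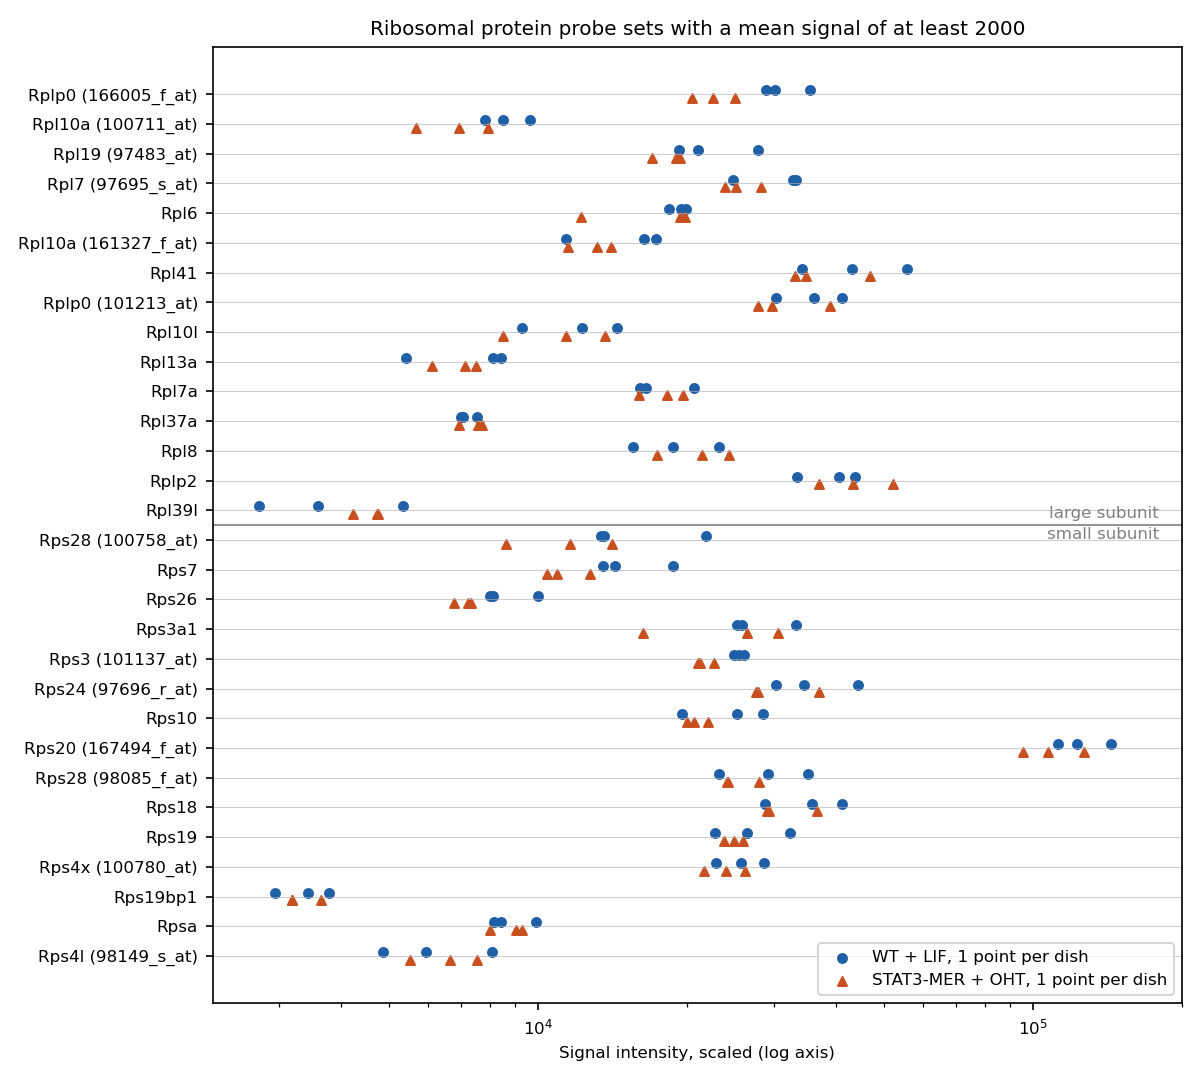
Scaled signal intensity (log axis) of the 30 ribosomal protein probe sets with a mean signal of at least 2000, with circles for the 3 WT dishes with LIF and triangles for the 3 STAT3-MER dishes with OHT, ordered by log2 fold change within each subunit. Circles and triangles are apart for Rplp0 (166005_f_at), Rps7, Rps26 and Rps3 (101137_at), and overlap for the other 26.

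Among the bright members, 24 of 30 had a log2 fold change below 0 (STAT3-MER over WT, on log2(signal + 32)), and the median was -0.19. The median over all probe sets with a mean signal of at least 2000 was -0.02, with 55.0% below 0, and over all 36701 probe sets it was 0.01. On U74Av2 alone, with a mean signal of at least 5000, the ribosomal protein median was -0.20 with 19 of 23 below 0, and that of all 304 such probe sets was -0.09 with 67.1% below 0. Under quantile normalization the median of the bright members was -0.03 and 17 of 30 were below 0, and under median scaling it was -0.18 with 22 of 30 below 0. Signs turned for 7 of 30 bright members under quantile normalization, among them Rplp0 (101213_at), Rpl41, Rps19, Rps4x and Rpsa, and for 2 under median scaling, among them Rpsa. Over all 71 members the median was -0.15, with 47 below 0, and it was -0.06 over the 41 dim members.

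The 95% intervals show how much of a change remains possible. For 29 of 30 bright members the interval lay between -1 and 1 on the log2 scale, with a median half-width of 0.49, and the lowest bound was -1.13 and the highest 0.86. For dim members only 18 of 41 intervals lay within -1 and 1, and the bounds reached from -2.73 to 2.44. In 16 members at least 1 of the 6 signals was under 32, and there the added 32 narrows the interval. Rps4x on 162229_at, with signals of 9.4 to 18.3, was at -0.003 ± 0.15, for example. Such narrow intervals do not bound the change of the signal itself. All but 1 interval of each set spanned 0.

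**Figure D2:**
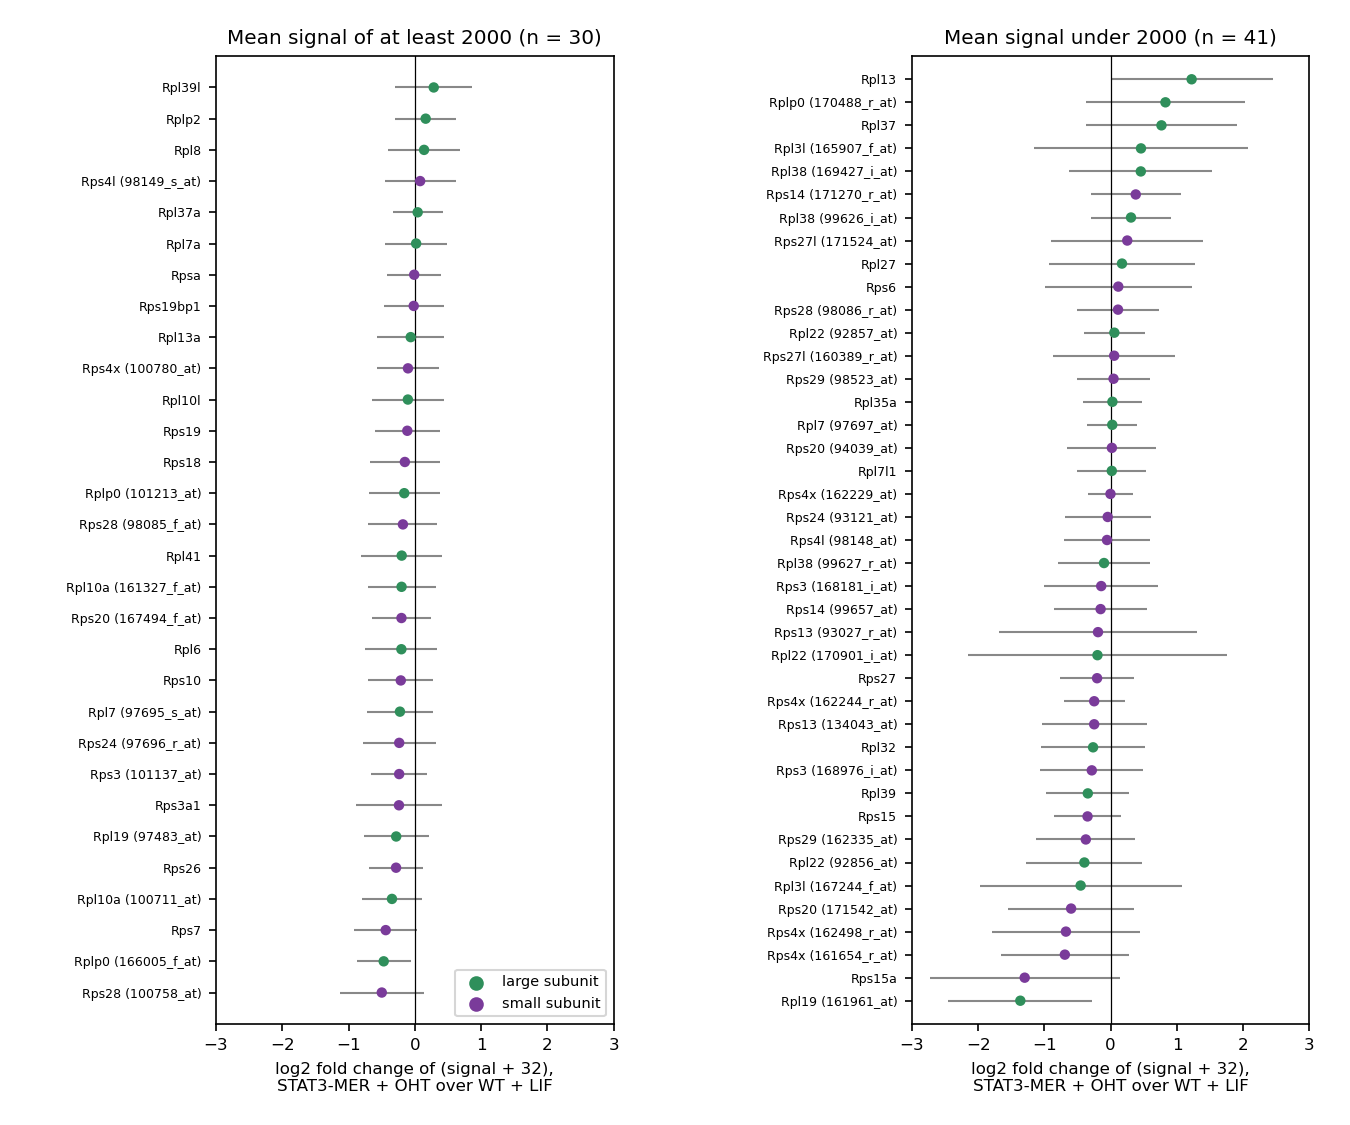
Log2 fold change of (signal + 32), STAT3-MER with OHT over WT with LIF, as points with 95% limma intervals as lines, for 30 bright members (left) and 41 dim members (right), green for the large and violet for the small subunit. The bright points run from -0.50 to 0.29 and the dim ones from -1.36 to 1.22, mostly with wider intervals.

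Rplp0 is the base of the ribosomal stalk, to which the acidic proteins Rplp1 and Rplp2 bind. On the U74Cv2 probe set 166005_f_at its signals were 28918, 30128 and 35363 in WT dishes and 20504, 25021 and 22598 in STAT3-MER dishes. All STAT3-MER dishes lay below all WT dishes, by a ratio of means of 1.39 and a log2 fold change of -0.47 ± 0.18 (SE). The limma p was 0.0279 before and 1.0 after Benjamini-Hochberg adjustment. On U74Av2 the probe set 101213_at read 41069, 36144 and 30311 in WT dishes and 29746, 27878 and 38927 in STAT3-MER dishes, where the groups overlapped at a log2 fold change of -0.16 ± 0.23. The dim 170488_r_at went the other way, at 0.83 ± 0.53. The suffix f marks probes shared within a sequence family. The probe sets lie on different chips, and the difference between their fold changes was not tested.

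In the small subunit, 3 genes showed the same separation on a bright probe set. Rps7, a surface protein of the small subunit whose gene is mutated in some Diamond-Blackfan anaemias, read 18743, 14277 and 13544 in WT dishes and 10409, 12750 and 10935 in STAT3-MER dishes. Its log2 fold change was -0.44 ± 0.21, with a limma p of 0.0648 before and 1.0 after adjustment. Every STAT3-MER dish was lower than the lowest WT dish, although WT 1 stood well above the other WT dishes.

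Rps3, which lies where the messenger enters the ribosome, had the lowest coefficient of variation of the members that did not overlap, 3.27%. Its signals on 101137_at were 26059, 24918 and 25459 in WT dishes and 21194, 21071 and 22644 in STAT3-MER dishes, a log2 fold change of -0.24 ± 0.18. Its other probe sets, 168181_i_at and 168976_i_at, were dim and overlapped, at -0.14 ± 0.38 and -0.29 ± 0.35. Rps26, which lies where the messenger leaves, read 8000.5, 8095 and 9987 in WT dishes and 7305, 7234 and 6777 in STAT3-MER dishes on 137217_f_at, a log2 fold change of -0.28 ± 0.18. These 4 probe sets are 4 of 30 bright members, and 3.56% of all probe sets with a mean signal of at least 2000 were separated in this direction.

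The promoters of these 4 genes are shown because their probe sets were the bright members whose groups did not overlap, together with those of Rps18, Rpl37a and Rps4x, which did overlap and were chosen after their sequences and values were seen, Rps18 and Rpl37a for repeats of the motif below and Rps4x for its absence. Each window runs from 80 bases before to 20 bases after the RefSeq start in GRCm38.p6, 5′ to 3′ along the gene, with CTTCCG or its reverse complement CGGAAG, the core letters of ETS family sites, in capitals. They lie at chr5:115559387-115559486 (Rplp0, plus strand), chr12:28635934-28636033 (Rps7, minus), chr7:99483690-99483789 (Rps3, minus), chr10:128626487-128626586 (Rps26, minus), chr17:33955646-33955745 (Rps18, minus), chr1:72711180-72711279 (Rpl37a, plus) and chrX:102189372-102189471 (Rps4x, minus).
Rplp0: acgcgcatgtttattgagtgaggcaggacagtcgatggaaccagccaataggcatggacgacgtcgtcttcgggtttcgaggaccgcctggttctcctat
Rps7: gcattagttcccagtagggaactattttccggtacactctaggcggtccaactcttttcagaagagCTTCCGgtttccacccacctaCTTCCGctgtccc
Rps3: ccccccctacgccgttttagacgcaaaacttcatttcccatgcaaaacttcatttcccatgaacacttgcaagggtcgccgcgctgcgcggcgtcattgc
Rps26: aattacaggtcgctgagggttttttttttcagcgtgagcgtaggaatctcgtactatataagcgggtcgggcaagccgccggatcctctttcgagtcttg
Rps18: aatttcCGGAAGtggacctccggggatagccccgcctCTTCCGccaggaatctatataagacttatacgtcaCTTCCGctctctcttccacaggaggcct
Rpl37a: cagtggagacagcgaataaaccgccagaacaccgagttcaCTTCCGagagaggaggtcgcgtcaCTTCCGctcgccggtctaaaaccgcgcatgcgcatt
Rps4x: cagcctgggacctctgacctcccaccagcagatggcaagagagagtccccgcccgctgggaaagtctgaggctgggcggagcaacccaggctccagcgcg

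In the printed windows the motif stands 2 times for Rps7, 3 times for Rps18 and 2 times for Rpl37a, and 0 times for Rplp0, Rps3, Rps26 and Rps4x. The longer windows of 300 bases, 250 before and 50 after the start, were given for 38 of the 45 genes, and there it stands 3 times for Rps7, 1 time for Rps3, 2 times for Rps26 and 0 times for Rplp0. In these, 25 of 38 member genes held CTTCCG on either strand (65.8%), against 18.8% of 27025 genes with a promoter in the same table. GGGCGG or CCGCCC, the letters of a GC box, stood in 24 of 38 (63.2%), against 38.2% of all. TATAAA or TTTATA stood in 4 of 38 (10.5%), against 15.7% of all. The last 3 letters of CTTCCG are the first 3 of CCGCCC, so these matches can overlap, and a match is a description of the sequence only.

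Within 50 bases on either side of the start, the longest unbroken run of C and T on the gene's strand had a median length of 10 over the member genes and 7 over all genes. A run of at least 8 was found in 28 of 38 member genes (73.7%) and in 39.3% of all. The bright members with CTTCCG in their promoter (17 probe sets of 16 genes) had a median log2 fold change of -0.20 with 13 below 0, and those without it (9 probe sets of 7 genes) one of -0.16 with 9 below 0. The 45 genes lie on 18 chromosomes, with at most 6 on one of them, chromosomes 7 and 17.

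In the large subunit, 10 of 15 bright probe sets were below 0, with a median log2 fold change of -0.16. Rplp2, the acidic stalk protein, read 43756, 40643 and 33370 in WT dishes and 43308, 36889 and 52244 in STAT3-MER dishes, a log2 fold change of 0.16 ± 0.20 whose sign differs from that of Rplp0. Rpl41, a very short basic peptide, read 55560, 43116 and 34080 in WT dishes and 34824, 33093 and 46923 in STAT3-MER dishes, at -0.20 ± 0.27. The groups overlapped for both genes.

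Rpl19, a protein of the bridge between the subunits, gave different sizes on its probe sets. On the bright 97483_at it read 27790, 21037 and 19247 in WT dishes and 17008, 19006 and 19387 in STAT3-MER dishes, at -0.28 ± 0.21. On the dim 161961_at it read 129, 382 and 79.8 in WT dishes and 35.3, 43.2 and 54.3 in STAT3-MER dishes, at -1.36 ± 0.47, with a limma p of 0.0199 before and 1.0 after adjustment. The latter groups did not overlap, but WT 2 alone was more than 2 times any other dish, and the bright probe set overlapped.

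Rpl10a, a protein at the exit side of the large subunit, was lower on both of its bright probe sets, at -0.34 ± 0.20 and -0.20 ± 0.22, with overlapping groups on each. Rpl7a at 0.02 ± 0.20 and Rpl37a at 0.04 ± 0.16 were close to 0, and Rpl37a had the smallest standard error of the bright members. Its signals were 7043, 6975 and 7520.2 in WT dishes and 7715, 6918 and 7571 in STAT3-MER dishes. Rpl8, next to the peptidyl transferase centre, was at 0.14 ± 0.23, and Rpl13a, which also silences inflammatory messages outside the ribosome, at -0.06 ± 0.22.

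Rpl6 and Rpl7 are structural proteins that bind the large ribosomal RNA. Rpl7 on 97695_s_at read 33264, 32817 and 24771 in WT dishes and 25064, 23914 and 28272 in STAT3-MER dishes, at -0.22 ± 0.21. Rpl6 read 19913, 18424 and 19452 in WT dishes and 19321, 12219 and 19804 in STAT3-MER dishes, at -0.20 ± 0.24. For Rpl6 only STAT3-MER 2 was apart, below all other dishes, and for Rpl7 the groups overlapped with WT 3 among the STAT3-MER dishes.

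Several large subunit genes were read only by dim probe sets, and their signals were low in every dish. Of these, Rpl13 and Rpl37 were named for their small p in these data, and Rpl38 and Rpl22 for their known roles. Rpl13 read 170, 91.2 and 500.3 in WT dishes and 639, 431 and 509 in STAT3-MER dishes, at 1.22 ± 0.54, and WT 3 lay inside the range of the STAT3-MER dishes. Rpl37 read 57.3, 67.9 and 93.2 in WT dishes and 96.4, 104 and 283 in STAT3-MER dishes, at 0.77 ± 0.50, without overlap. Rpl38, whose loss causes the tail-short phenotype of mice, had 3 dim probe sets between -0.10 and 0.45, and Rpl22, which has a paralog of its own, had 3 between -0.40 and 0.06. The dim probe sets of Rpl27, Rpl32, Rpl35a, Rpl39 and the paralog Rpl7l1 lay between -0.35 and 0.17, and those of the muscle paralog Rpl3l at -0.45 and 0.46.

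In the small subunit, 14 of 15 bright probe sets were below 0, with a median log2 fold change of -0.20, and the exception was Rps4l at 0.08 ± 0.23. The 14 include Rps19bp1, no ribosomal protein, at -0.02 ± 0.20. Whether the subunits differ was not tested. Rps28, at the messenger exit, was lower on 2 bright probe sets: on 100758_at it read 21865, 13592 and 13403 in WT dishes and 8604, 14130 and 11591 in STAT3-MER dishes, at -0.50 ± 0.28, and on 98085_f_at it was at -0.18 ± 0.23. The groups overlapped on both, and its dim 98086_r_at was at 0.11 ± 0.27.

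Rps19, the gene mutated most often in Diamond-Blackfan anaemia, read 32320, 26449 and 22758 in WT dishes and 23773, 24900 and 25948 in STAT3-MER dishes. Its log2 fold change was -0.11 ± 0.21 and became 0.02 without WT 1. Rps4x, an X-linked protein of the small subunit body, was at -0.10 ± 0.20 on its bright probe set, and its 4 dim probe sets lay between -0.69 and 0.00. Rpsa, also known as the laminin receptor, read 8155, 9910.5 and 8431 in WT dishes and 9009, 8008 and 9263 in STAT3-MER dishes, at -0.01 ± 0.18, the value closest to 0 of the bright members.

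Further bright members of the small subunit were lower in the mean with overlapping groups. Rps20, a protein of the head of the subunit, read 122570, 143660 and 112190 in WT dishes and 95392, 126970 and 107230 in STAT3-MER dishes on 167494_f_at, at -0.20 ± 0.20. Rps24, which is mutated in some Diamond-Blackfan anaemias, was at -0.24 ± 0.24 on 97696_r_at and read 44237 in WT 1, above all other dishes. Rps10 and Rps18, proteins of the head, were at -0.21 ± 0.21 and -0.15 ± 0.23, and Rps3a1 at -0.24 ± 0.28. WT 1 was the highest dish for all of these but Rps20.

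The other small subunit genes named here had dim probe sets only. Rps6, the substrate of the S6 kinases, was at 0.11 ± 0.49. Rps14 was at -0.15 ± 0.31 on 99657_at and at 0.38 ± 0.30 on 171270_r_at, where all STAT3-MER dishes (1034, 636 and 673) were above all WT dishes (552, 572 and 615). Rps27 was at -0.21 ± 0.24, and its p53-responsive paralog Rps27l was at 0.25 ± 0.51. Rps15a, with signals of 13.4 to 334, was at -1.30 ± 0.64, and Rps15, with signals of 12.6 to 49.9, at -0.35 ± 0.22. The groups overlapped for both genes, and the sizes depend on the added 32. With 8 added instead, Rps15a was at -1.82 and Rps15 at -0.59, and with 100 added they were at -0.78 and -0.17. Rps13 and Rps29 had 2 dim probe sets each, which lay between -0.38 and 0.04.

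Paralogs that meet the rule by their symbol are not all parts of the common ribosome. Rpl39l, a paralog known from testis, read 5339, 3592 and 2725 in WT dishes and 4727, 4758 and 4230.5 in STAT3-MER dishes, at 0.29 ± 0.25, the highest value of the bright members. Rpl10l, another testis paralog, was at -0.10 ± 0.24. Rps19bp1, which binds Rps19 and is no ribosomal protein, was at -0.02 ± 0.20. Signals of such genes are uncertain, since probes can also bind transcripts of the parent gene or of the many processed pseudogenes of ribosomal protein genes.

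Probe sets of the same gene often went different ways where a dim one was among them. Of 17 genes with 2 to 5 probe sets, 7 had the same sign on all of them and 10 did not. Each of these 10 has a dim probe set among those that differ in sign. Rpl10a, Rplp0 and Rps28, which have several bright probe sets, were below 0 on all bright ones. Genes with a bright and a dim probe set included Rps20, with mean signals from 47.8 to 118003 and log2 fold changes from -0.60 to 0.02. Rpl7 was at -0.22 on its bright probe set and at 0.02 on its dim one, whose mean signal was 12.6. Rps24 was at -0.24 on its bright and -0.05 on its dim probe set.

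The bright members were also followed from dish to dish, and whether they moved together was not tested. On U74Av2, where 24 of them are, the median deviation from the mean of the 6 arrays was 0.30 for WT 1, 0.10 for WT 2 and -0.10 for WT 3. For the STAT3-MER dishes 1, 2 and 3 it was -0.13, -0.16 and 0.06. WT 1 was the highest dish for 17 of 24 but the lowest for 3. STAT3-MER 2 was the lowest for 11 of 24, and the median of WT 3 lay below that of STAT3-MER 3. Over all 1005 probe sets of this chip with a mean signal of at least 2000, these deviations lay between -0.09 and 0.07, and that of WT 1 was -0.02.

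The array of WT 1 on U74Av2 also had the highest ratio of 3′ to 5′ signal of the Gapdh control, 15.3 against 9.06 to 10.6 on the other 5 arrays, and of the β-actin control, 7.81 against 4.69 to 5.95. On U74Cv2 the highest Gapdh ratio was that of WT 2, 16.2 against 6.56 to 12.45. There the 5 bright members had their highest median deviation, 0.18, in WT 2. Of these 5, however, 2 were highest in WT 2 and 2 in WT 3, whose ratio was 6.85. On U74Bv2 the ratio of WT 2 was 19.95, and the bright Rps19bp1 (112788_at) had its lowest signal, 2937.7, in that dish. The part of this end ratio in the ribosomal protein values was not tested. Without the array with the highest Gapdh ratio on each chip, the median of the bright members was -0.09, with 25 of 30 below 0, and that of all bright probe sets was -0.05. Without WT 1 the median was -0.09 with 26 of 30 below 0. Since the highest ratio is on WT 1 on U74Av2 and on WT 2 on the other chips, the labels WT 1 and WT 2 may be exchanged between chips, and a value without WT 1 or WT 2 may leave out arrays of different dishes. Without STAT3-MER 2 the median of the bright members was -0.11, with 19 of 30 below 0.

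**Figure D3:**
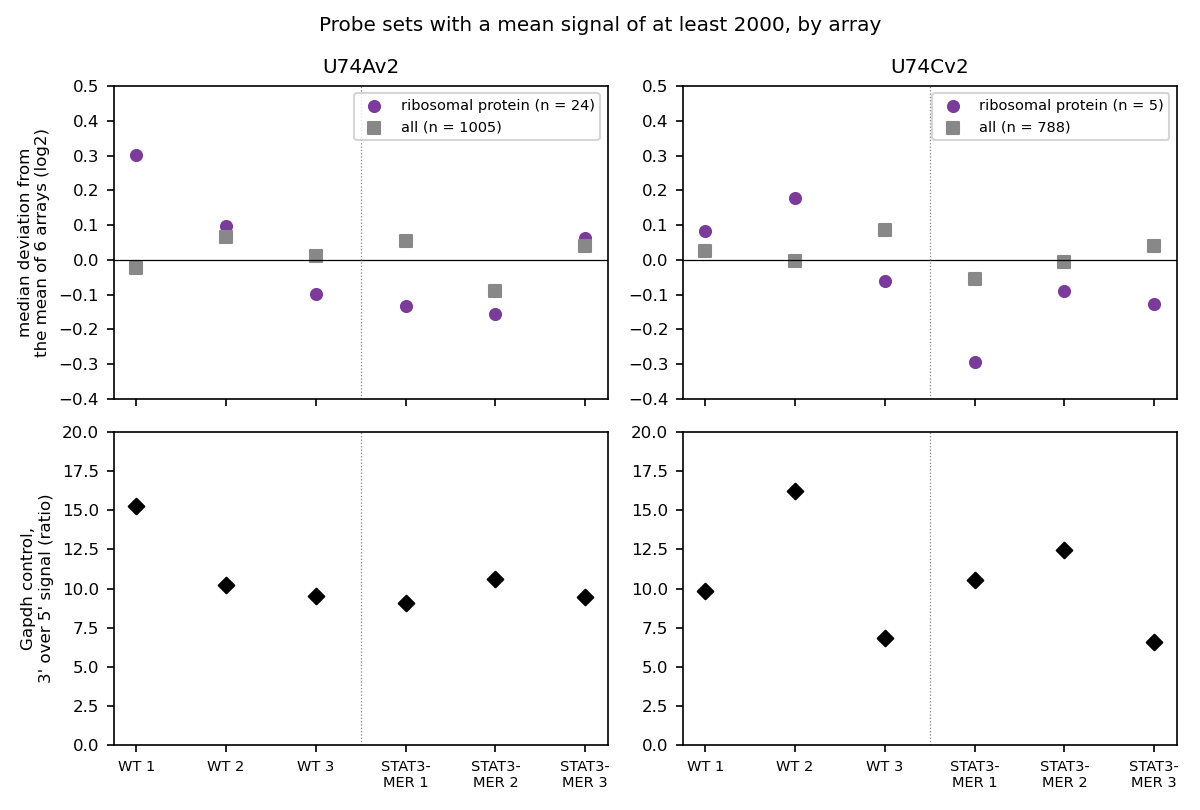
Upper row, median deviation (log2) of the bright ribosomal protein probe sets (violet circles) and of all bright probe sets (grey squares) from their mean over the 6 arrays of U74Av2 (left) and U74Cv2 (right); lower row, ratio of 3′ to 5′ signal of the Gapdh control on the same arrays. WT 1 on U74Av2 and WT 2 on U74Cv2 have the highest ratios, 15.3 and 16.2, and the highest median ribosomal protein deviations, 0.30 and 0.18. On U74Cv2, 2 of the 5 bright members were highest in WT 2 and 2 in WT 3.

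Of the 19 feeder markers measured, 18 were also below 0, with a median log2 fold change of -0.21, and 0 passed the limma threshold or had an unadjusted p under 0.05. On U74Av2, 16 of 17 were below 0. By dish, their summed signals came to 48730 in WT 1, 20274 in WT 2 and 49565 in WT 3, against 12157, 54823 and 39708 in the STAT3-MER dishes 1, 2 and 3. The 11 ES cell markers on U74Av2 summed to 87554, 72412 and 59503 in WT dishes and 68809, 65748 and 75362 in STAT3-MER dishes. Dppa5a alone gave 43341 of this sum in WT 1, and without it the other 10 markers summed to 44213, 44332 and 36651 in WT dishes and 44435, 41710 and 49067 in STAT3-MER dishes. The part of both sums in the ribosomal protein values was not tested.

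Other genes of the translation machinery were counted with 1 probe set per gene. Counted so, 28 of the 45 ribosomal protein genes were below 0, with a median of -0.10, and 0 had an unadjusted p under 0.05. Of 59 ribosome biogenesis genes, which act in ribosomal RNA synthesis and subunit assembly, 0 passed the limma threshold, 0 had an unadjusted p under 0.05, and 29 were below 0 with a median of 0.01. The same counts were 0, 0 and 41 of 74 for mitochondrial ribosomal protein genes, whose ribosome is a separate one, with a median of -0.02. Of 17 other messages with a known TOP start, 0 passed and 8 were below 0, with a median of 0.01. Within this list the bright Eef1a1, the factor that brings aminoacyl-tRNA, was at -0.24 ± 0.25 and Tpt1 at -0.24 ± 0.20, while Eef2, the translocation factor, was at 0.08 ± 0.19 and Pabpc1, the poly(A)-binding protein, at 0.09 ± 0.23. Fau, which encodes a ribosomal protein fused to a ubiquitin-like one, was dim, at -0.11 ± 0.30.

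Of the 52 probe sets that pair a ribosomal protein gene with other genes, 27 were bright. Of the 27 with a mean signal of at least 2000, 26 were below 0, with a median log2 fold change of -0.22, and 0 of all 52 passed the limma threshold, with 1 at an unadjusted p under 0.05. They were read from the same arrays as the members and are no independent sample of dishes.

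**Figure D4:**
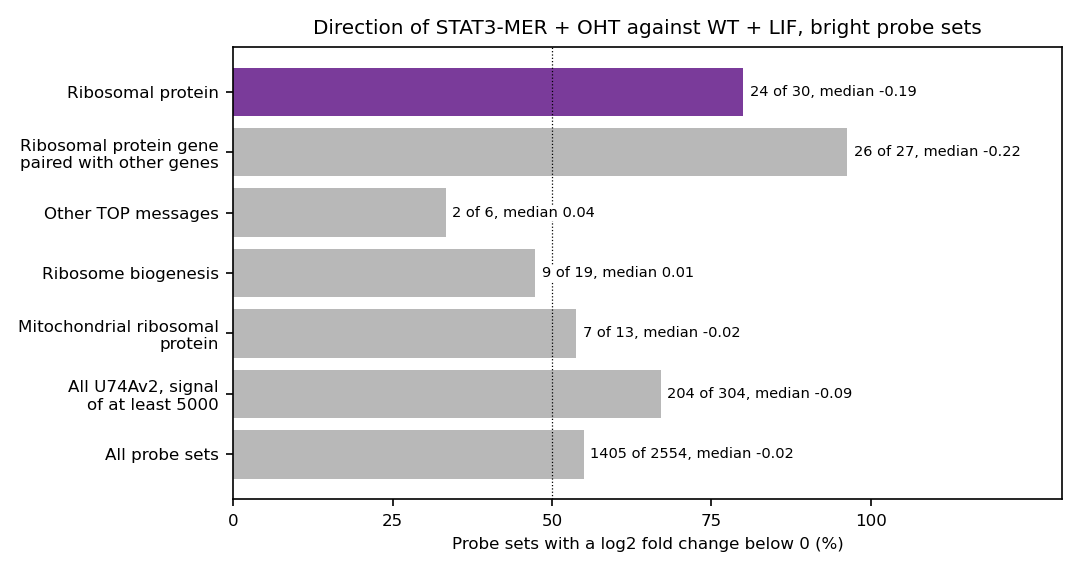
Share of bright probe sets (mean signal of at least 2000, or 5000 where stated) with a log2 fold change below 0, as bars, with counts and medians beside them and a dotted line at 50%. The bars of other TOP messages, ribosome biogenesis and mitochondrial ribosomal protein genes hold 1 probe set per gene. The other bars hold all probe sets, so the kinds of count differ. Ribosomal protein probe sets (24 of 30) and those that pair such a gene with others (26 of 27) have the longest bars, and all U74Av2 probe sets of at least 5000 follow with 204 of 304.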

How the data were processed

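The authors labelled RNA after 2 rounds of amplification and deposited linear signal intensities that they had scaled to a trimmed mean near 500. MAS5 is named, without a version, in the submitters' processing notes. One unnumbered U74Av2 array of STAT3-MER cells was taken as number 2, and an array labelled for 2 chips as U74Cv2, since it holds the probe sets of that chip. Arrays were scaled to equal trimmed means (2% cut on each side). Over all 36701 probe sets that are not controls, log2(signal + 32) was compared with limma 3.58.1 in R 4.3.3 (1 fit per chip, variance trend, two-sided, Benjamini-Hochberg over all chips). The fit was tested on simulated data. The study's criteria were applied to these signals with a t-test of unequal variances. The study applied them to dCHIP values and names a t-test without its variance setting. The number of arrays limits the precision.

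Members, lists and the 2000 limit were chosen with earlier results of these data known. Named genes were 25 chosen for their roles, of which 14 have a probe set here, and the 4 of each subunit with the smallest p on 1 probe set per gene (no suffix preferred, then the brightest). Rps26, Rpl6, Rpl7, Rpl8, Rpl7a, Rpl37a, Rps10, Rps18, Rps20, Rps24, Rps3a1, Rps4l and the other members outside this rule were named after their values were seen. All 71 members matched RefSeq (GRCm38.p6), whose promoter table has entries for 38 genes. Figures used matplotlib 3.10.9.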

Additional observations from a re-analysis of the deposited data

How the results depend on the processing

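No ribosomal protein probe set passed the adjusted limma threshold under any alternative run, and the median over all members kept its sign, between -0.23 (without WT 3) and -0.05 (quantile normalization), with -0.07 without STAT3-MER 2 and -0.08 without WT 1. Members with an unadjusted p under 0.05 numbered 2 at first, 1 each on U74Av2 alone, with no variance trend and without suffixed probe sets, 0 each with 1 representative or the brightest probe set per gene, and 0 to 3 with a dish left out (0 without STAT3-MER 1). Members without overlap numbered 7 at first, 3 on U74Av2 alone, 4 each with a mean signal of at least 2000, with 1 representative probe set per gene and without suffixed probe sets, 11 without the arrays of the highest Gapdh ratio, and 7 to 17 with a dish left out (15 without STAT3-MER 2, 17 without STAT3-MER 3, 12 without WT 2 and 17 without WT 3), where fewer dishes make a gap more likely. The study's criteria called 0 to 1 members with a dish left out (1 without WT 3). The median of bright members moved from -0.19 to -0.034 under quantile normalization and lay between -0.28 (without WT 3) and -0.09 (without WT 1) with a dish left out, and the cause was not tested.

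Signs turned for 9 of 24 named probe sets. Under quantile normalization Rpl41 became 0.019, Rplp0 0.025, Rps19 0.012, Rps4x 0.011 and Rpsa 0.031, and Rpsa was 0.005 under median scaling. Without the arrays of the highest Gapdh ratio Rps19 was 0.019 and Rps6 -0.145. With a dish left out, Rpl22 ran from -0.064 to 0.132, Rps14 from -0.411 to 0.039, Rps19 from -0.234 to 0.019, Rps27l from -0.288 to 0.569, Rps6 from -0.145 to 0.434 and Rpsa from -0.064 to 0.076. Leaving out the arrays of the highest Gapdh ratio, the brightest probe set per gene and the limit of 2000 were chosen after seeing the data.

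Deviations of same-numbered arrays correlated at 0.07 to 0.21 on U74Bv2 and U74Cv2, where every array correlated best with its own number. On U74Av2 they correlated at -0.30, -0.33 and 0.29, while WT 1 with STAT3-MER 2 gave 0.46 and WT 2 with STAT3-MER 1 gave 0.41, so the numbers were not taken as pairs over all chips. With the replicate block on the numbers of the labels, 0 members passed the adjusted threshold and 3 had an unadjusted p under 0.05. The block cannot change the medians, -0.15 over all members and -0.19 over the bright ones, since every number has an array in each group. Dim probe sets, with intervals that are mostly wide or are narrowed by the added 32, limit what can be said of the 18 genes that only they read.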
